A study of Homo sapiens with 4 samples.

Results

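Regions of N6-methyladenosine (m6A, adenosine that carries a methyl group in RNA) centred in an exon of a non-coding transcript were described in the human embryonic stem cell line H1, an established line. They were the regions whose centre HOMER, a peak annotation tool, had placed in an exon of a RefSeq transcript that encodes no protein, and there were 369 of them among 9900 regions in all. RNA fragments had been recovered with an m6A antibody in 2 pull-down libraries and set beside 2 libraries of input RNA. All 4 libraries were made from total RNA of wild-type H1 cells, with no knockout or overexpression, and the labels do not say whether the replicates were separate cultures. The deposited result was 1 intersected set of MACS2 peaks on hg38, with a position, a width and an annotation for each region but no height, score or value per library. Library depth and RNA levels were therefore unknown, the absence of a region does not show the absence of m6A, and no replicate error could be set beside a difference. Intervals of single shares given below are 95% exact binomial (Clopper-Pearson) intervals. These and the intervals of differences cover counting error only, and regions of 1 set are not replicates.

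m6A is written on nascent RNA by a complex built around METTL3 and METTL14 and is read by proteins that alter splicing, export, stability or translation of the RNA. In messenger RNA it is known to gather near the stop codon and in long last exons. Long non-coding RNAs (lncRNAs), such as MALAT1, also carry it. A non-coding transcript can come from an lncRNA gene, from a transcribed pseudogene (a copy of a gene that has lost its coding function) or from a protein-coding gene, as an isoform without a reading frame.

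The 4 start windows that follow show where m6A regions met the beginning of lncRNA genes. They are RefSeq sequences of GRCh38.p14, running 5′ to 3′ on the gene's strand from 250 bases before the gene start to 50 bases after it, and capitals mark the bases that lay inside an m6A region. The window of NEXN-AS1, at chr1:77889490-77889789 on the minus strand, lay whole inside its region. In the window of KDM7A-DT, at chr7:140177011-140177310 on the plus strand, 76 bases were inside. For NORAD, at chr20:36050911-36051210 on the minus strand, the region reached 19 bases of the window. For LINC01356, at chr1:112850594-112850893 on the minus strand, it took 96 bases.
NEXN-AS1: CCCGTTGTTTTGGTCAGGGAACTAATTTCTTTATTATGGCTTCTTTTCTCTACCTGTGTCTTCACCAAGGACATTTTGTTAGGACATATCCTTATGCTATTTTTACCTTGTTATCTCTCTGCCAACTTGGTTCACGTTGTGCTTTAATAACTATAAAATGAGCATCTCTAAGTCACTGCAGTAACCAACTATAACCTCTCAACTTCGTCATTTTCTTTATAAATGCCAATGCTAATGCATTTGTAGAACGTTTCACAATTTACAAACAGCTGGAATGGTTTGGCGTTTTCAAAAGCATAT
KDM7A-DT: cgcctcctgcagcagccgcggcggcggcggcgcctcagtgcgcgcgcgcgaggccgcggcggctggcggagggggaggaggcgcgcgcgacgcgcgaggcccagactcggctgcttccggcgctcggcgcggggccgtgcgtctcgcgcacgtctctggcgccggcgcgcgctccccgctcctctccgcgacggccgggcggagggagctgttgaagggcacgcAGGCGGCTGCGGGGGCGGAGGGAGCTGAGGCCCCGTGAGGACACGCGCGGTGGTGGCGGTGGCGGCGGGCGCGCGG
NORAD: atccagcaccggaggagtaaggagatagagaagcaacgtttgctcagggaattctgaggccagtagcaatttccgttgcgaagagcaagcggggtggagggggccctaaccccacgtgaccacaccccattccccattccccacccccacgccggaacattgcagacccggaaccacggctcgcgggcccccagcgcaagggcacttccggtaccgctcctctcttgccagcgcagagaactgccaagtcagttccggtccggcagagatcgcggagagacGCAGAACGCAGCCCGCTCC
LINC01356: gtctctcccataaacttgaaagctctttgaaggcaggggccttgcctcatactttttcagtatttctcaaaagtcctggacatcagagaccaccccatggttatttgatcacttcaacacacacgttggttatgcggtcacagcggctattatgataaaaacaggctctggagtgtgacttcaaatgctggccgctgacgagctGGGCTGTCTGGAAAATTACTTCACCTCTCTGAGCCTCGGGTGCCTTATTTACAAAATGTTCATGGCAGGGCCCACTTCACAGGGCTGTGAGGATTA

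In all, 30 of the 369 regions met a start window. They met 38 windows of 37 genes, of which 16 windows belonged to lncRNA genes, and 12 windows lay whole inside a region. ZNF660 and ZNF660-ZNF197 share a window, so there were 37 distinct ones. The NEXN-AS1 region (2653 bp) also covered the whole start window of NEXN, the actin-binding protein gene on the opposite strand, so it spanned the starts of both genes. GGACT, the best-known form of the m6A consensus, was searched for on both strands as GGACT and AGTCC. It occurred in 13 of the 38 windows on the printed strand (34.2%) and in 13 on the other (34.2%), while 25.3% of all 35116 start windows held it on each strand. Within the m6A regions themselves it occurred in 8 windows on the printed strand and 7 on the other; most windows lay only partly inside a region. In the 4 windows shown, the capitals held it on neither strand, and LINC01356 held it once, on the other strand and outside the capitals.

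By host gene, 165 of the 369 regions lay in non-coding isoforms of protein-coding genes (44.7%, interval 39.6 to 49.9%), 114 in lncRNA genes (30.9%, 26.2 to 35.9%) and 78 in pseudogenes (21.1%, 17.1 to 25.7%). There was 1 region labelled TALAM1, the transcript antisense to MALAT1. The transcripts of the remaining 11 regions were not matched to the RefSeq gene table, which held the other 358. Among these 11, 8 could be placed by position in a single gene, and the table listed each of those 8 genes as protein-coding, TUG1 and TUNAR among them. The regions belonged to 344 distinct host genes, 13 of which held at least 2 regions. Set against the genes that could host one, a region was found in 110 of 6720 lncRNA genes (1.64%), 73 of 1201 pseudogenes (6.08%) and 160 of 3134 coding genes (5.11%). Each of these totals counts only genes with a RefSeq non-coding transcript. For comparison, 2419 of 20052 protein-coding genes (12.1%) held a region centred in a coding exon or an untranslated region (UTR). Since RNA levels were not in the files, a lower share in lncRNA genes and fewer or less abundant lncRNAs cannot be told apart.

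Among lncRNAs of known function, KCNQ1OT1, NORAD, LINC-PINT, LINC-ROR and PEG13 each held a region by transcript label. The regions carry no strand, so where another gene overlaps, the label does not show which RNA carried the m6A. KCNQ1OT1, the imprinted transcript that silences neighbouring genes in cis, was the only one of these 5 with 2 regions, of 923 bp at chr11:2637215-2638137 and 3479 bp at chr11:2641476-2644954. They took 1.01% and 3.8% of the 91667 bp of KCNQ1OT1, and both lay inside KCNQ1, a potassium channel gene. NORAD, a cytoplasmic lncRNA that sequesters PUMILIO proteins, held a region of 995 bp at chr20:36049935-36050929. It ran from 31 to 1025 bp after the 5′ end of the gene and made up 18.6% of its 5343 bp, so the region lay at the beginning of this single-exon RNA. LINC-PINT, a transcript induced by p53, held a region of 1449 bp in exon 2 of 5, from 958 to 2406 bp after the 5′ end of a gene of 232364 bp. LINC-ROR, a lncRNA studied in reprogramming to pluripotency, held 1384 bp at chr18:57054683-57056066 in exon 5 of 5. LINC01356, from the list of lncRNAs of human pluripotent cells, held 903 bp in exon 1 of 7, starting 46 bp before the 5′ end of the gene. The position of the region along the gene therefore differed from one lncRNA to the next.

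PEG13, a paternally expressed imprinted transcript inside TRAPPC9, held 2166 bp, or 38.4% of its gene of 5642 bp. MALAT1, an abundant nuclear lncRNA, held 1582 bp from 1318 to 2899 bp after its 5′ end (18% of 8779 bp), and this is the region that HOMER had given to TALAM1. The deposited regions carry no strand, so the 2 RNAs cannot be told apart at this position. OTX2, the homeobox transcription factor of primed pluripotency named in the series title, held 1243 bp at chr14:56800759-56802001 in exon 2 of 2 of a non-coding isoform. It ran from 8478 to 9720 bp after the 5′ end of a gene of 10575 bp. Its paralog OTX1, chosen after its values were seen, held 1223 bp at chr2:63055868-63057090 in exon 5 of 5, from 6133 to 7355 bp of 8097 bp. In both paralogs the region sat in the last exon, toward the 3′ end of the gene.

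**Figure D1:**
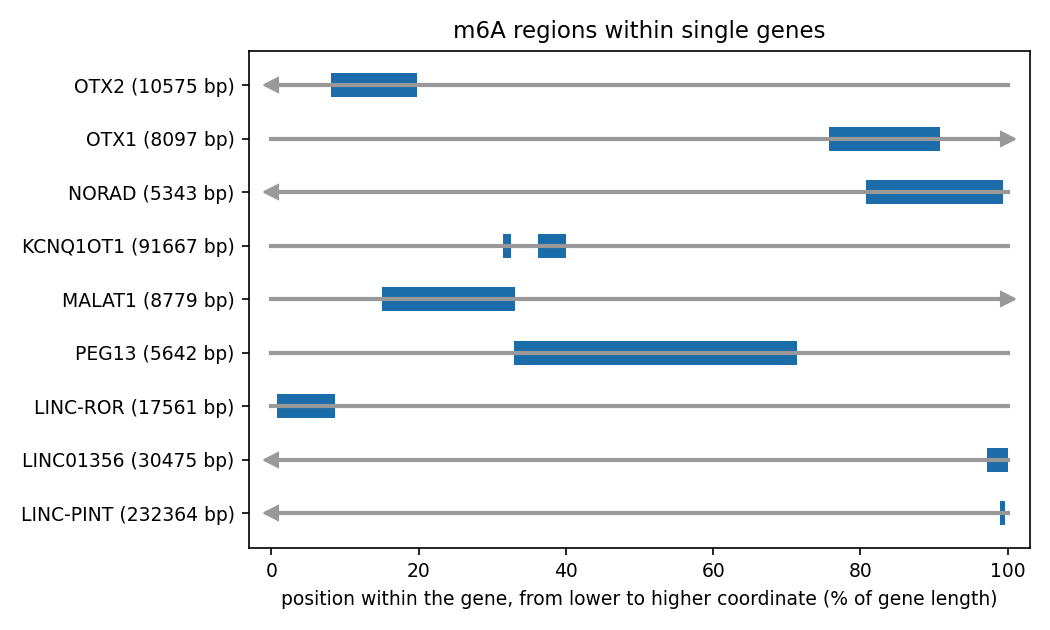
Position of the m6A region within 9 genes, each drawn as a grey line from its lower to its higher coordinate and scaled to its own length, which stands in bp beside the name. Blue bars are regions and arrowheads mark the 3′ end where the strand was known. The regions of NORAD, LINC01356 and LINC-PINT lie at the 5′ end, and those of OTX2 and OTX1 toward the 3′ end.

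Symbols ending in AS, given to antisense genes, were the commonest kind among the 114 lncRNA regions. There were 41 such regions in 39 genes, against 22 in LINC genes and 11 in divergent transcripts (symbols ending in DT), which start beside a coding gene and run away from it. The shares of all such genes that held a region were 2.09% (39 of 1865) for antisense genes, 2.01% (11 of 546) for divergent transcripts and 1.04% (22 of 2110, interval 0.655 to 1.57%) for LINC genes. Over all lncRNA genes with a RefSeq non-coding transcript the share was 1.64%. Of the 114 regions, 46 (40.4%, 31.3 to 49.9%) were centred inside the body of another protein-coding gene. Since the regions carry no strand, the lncRNA and the RNA of that coding gene cannot be told apart there. The strands of both genes were known for 29 of these 46, and the coding gene was on the opposite strand in 22 (75.9%) and on the same strand in 7. A coding gene lay within 5 kb of 67 regions (58.8%). How often a coding gene lies that close to lncRNA genes in general was not tested. The nearest other coding gene held an exonic m6A region of its own for 27 of the 114 regions (23.7%, 16.2 to 32.6%). That share was 34.6% for pseudogene regions and 20.6% for isoform regions, so it was not particular to lncRNA genes. Over all coding genes, 12.1% had a region in a coding exon or UTR, but that share counts genes and the others count regions.

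Single lncRNA genes show the range. The widest regions up to 5 kb, after KCNQ1OT1, belonged to MIF4GD-DT (3224 bp), FLJ42627 (2828 bp), NEXN-AS1 (2653 bp), BAIAP2-DT (2387 bp) and GHET1 (2345 bp). The narrowest were those of BCDIN3D-AS1 (682 bp, exon 3 of 3), NCK1-DT (686 bp, exon 4 of 4) and LINC01018 (691 bp, exon 5 of 5). Each of these 3 narrow regions was centred in the last exon. Among antisense genes, HSD17B1-AS1 held 2099 bp, WAC-AS1 2077 bp, MRPS9-AS1 1957 bp and PEA15-AS1 1860 bp. Among divergent transcripts, CEBPA-DT, beside the gene of the transcription factor C/EBP-alpha, held 1943 bp, and IRX2-DT, beside a homeobox gene, held 1749 bp. LINC01234 (2161 bp), LINC00598 (1926 bp) and LINC00674 (1687 bp) had the widest regions of the LINC genes. TENM3-AS1, LOC730101 and ZNF407-AS1 held 2 regions each. For LOC730101 these were 1139 bp in exon 1 and 1376 bp in exon 2 of its 2 exons, and for ZNF407-AS1 they were 1248 bp in exon 1 and 919 bp in exon 2 of 2, so both exons of these genes held a region.

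**Figure D2:**
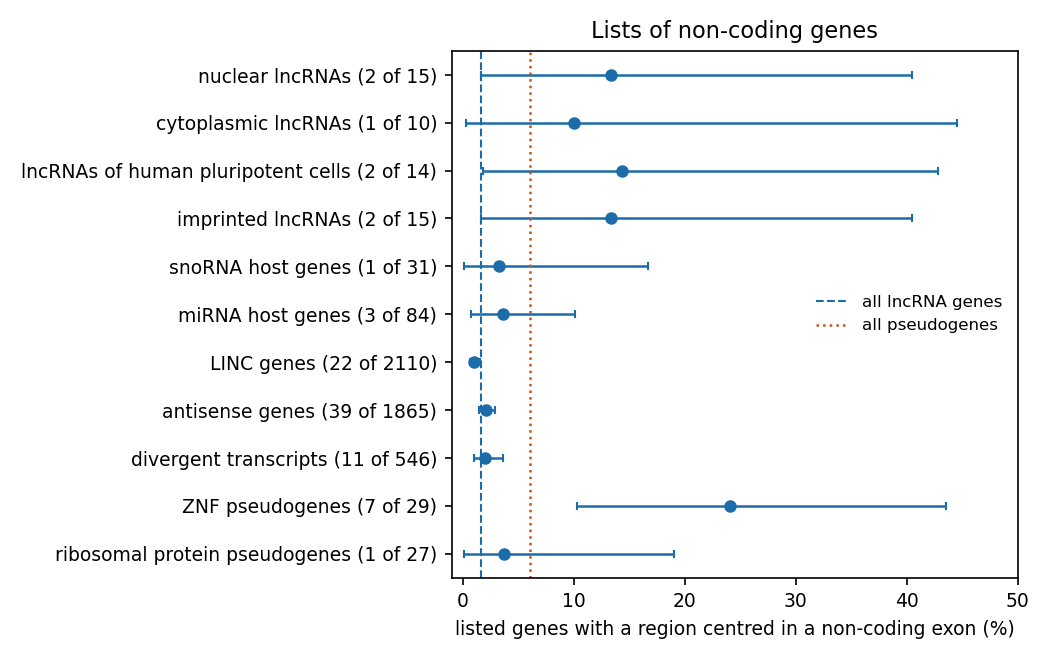
Share of listed genes that held an m6A region centred in a non-coding exon, in percent, with 95% exact binomial intervals and the number of genes beside each list. The dashed line is the share over all lncRNA genes (1.64%) and the dotted line that over all pseudogenes (6.08%), in both cases genes with a RefSeq non-coding transcript. Genes are counted by transcript label, and 3 lists with a count of 0 are not drawn. Zinc finger pseudogenes stand at 24.1%.

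Lists of well-studied lncRNAs held a region in 10% to 14.3% of their genes by transcript label, beside 1.64% over all lncRNA genes with a RefSeq non-coding transcript. There were 2 of 15 nuclear lncRNAs (KCNQ1OT1 and LINC-PINT), 1 of 10 cytoplasmic lncRNAs (NORAD), 2 of 14 lncRNAs of human pluripotent cells (LINC-ROR and LINC01356) and 2 of 15 imprinted lncRNAs (KCNQ1OT1 and PEG13). These counts leave out MALAT1, whose region was labelled TALAM1, and TUG1 and TUNAR, whose transcripts were not matched. With regions given by position as well, they were 4 of 15 nuclear lncRNAs (26.7%, 7.79 to 55.1%) and 3 of 14 lncRNAs of human pluripotent cells (21.4%, 4.66 to 50.8%). The lists hold few genes, and their well-studied members were chosen with earlier results known. Some listed genes, TUG1 and TUNAR among them, are not typed as lncRNA genes, so the 1.64% does not count them. NEAT1, MIAT, OIP5-AS1, DANCR, CRNDE, ESRG, LNCPRESS2, H19 and MEG3 had no region anywhere in the gene body. LNCPRESS1, a p53-controlled lncRNA of pluripotent cells, had 1 region, but in an intron (1663 bp). FTX and JPX, lncRNAs of the X-inactivation centre whose gene bodies overlap, had 8 and 4 regions over their gene bodies, each centred in an intron. SNHG31 was the 1 of 31 snoRNA host genes, with 1014 bp in exon 4 of 4, while GAS5 and SNHG1 had none. The 3 of 84 miRNA host genes were MIR1915HG (1150 bp), MIR550A3HG (847 bp) and MIR924HG (841 bp), and none of 1562 annotated miRNA hairpins overlapped a region of the set. None of the 8 small structured RNAs, RN7SK and RMRP included, and none of 24 genes of the m6A machinery, METTL3, METTL14, WTAP and VIRMA included, held a region in a non-coding exon, beside 5.11% of all coding genes with a non-coding transcript. Which of the 24 genes have a non-coding transcript was not checked, and a gene without one cannot hold such a region. Of the same 24 genes, 11 held a region centred in a coding exon or UTR, METTL14 and VIRMA among them, beside 12.1% of all coding genes. A region lay somewhere over the gene body of 15 (62.5%), and that share over all coding genes was not computed. A count of 0 among 8 leaves an interval up to 36.9%, and a count of 0 among 24 one up to 14.2%.

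Several gene families recurred among the pseudogene regions. Zinc finger pseudogenes, copies of genes for DNA-binding proteins, gave 10 of the 78 regions in 9 genes (805 to 2091 bp), and the FAM86 family, related to a lysine methyltransferase gene, gave 5 regions in 4 genes (995 to 2264 bp). Protocadherin pseudogenes gave 3 regions of 2321 to 2663 bp, with PCDHGB8P the widest of them. The GOLGA2, BMS1, SH3GL1 and LRRC37A families gave 2 each. Of 29 listed ZNF pseudogenes, 7 held a region (24.1%, 10.3 to 43.5%), beside 6.08% of all pseudogenes with a RefSeq non-coding transcript. They include ZNF658B (2091 bp), ZNF204P (2061 bp) and ZNF37BP, whose regions of 2065 and 1706 bp both lay in exon 8 of 8. Among ribosomal protein pseudogenes 1 of 27 held a region (3.7%, RPL13AP20, 828 bp). The interval of that share contains the 6.08% of all pseudogenes and overlaps the interval of the ZNF pseudogenes. None of 4 pseudogenes of pluripotency factors held a region, which leaves an interval up to 60.2%. WTAPP1, named for the m6A writer subunit WTAP and chosen after its values were seen, held 963 bp in exon 6 of 8.

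Of the 73 pseudogenes, 34 share a symbol with a coding gene once the P and number are removed, which gave 32 distinct namesakes. Of these, 5 held a coding exon or UTR region (15.6%, 5.28 to 32.8%), namely BEND3, OXCT2, SLC9A7, TOB2 and ZKSCAN8, a share near the 12.1% of all coding genes. How the authors treated reads that align to several places was not stated, so regions in pseudogenes with near-identical copies are uncertain in their origin. The widest pseudogene regions up to 5 kb were in GOLGA2P7 (3819 bp), CHMP1B2P (3360 bp), LRRC37A4P (3218 bp), PCDHGB8P (2663 bp), C22orf46P (2564 bp) and AFG3L1P (2551 bp). The narrowest were in MSX2P1 (696 bp), MIPEPP3 (727 bp) and TMED10P1 (739 bp). FAM86EP held 2 regions, of 2130 and 2264 bp, in exons 4 and 3 of 4, and SPATA31B2P held 2, of 1572 and 1225 bp, in exon 4 of 4. FAM239B held 3 regions, of 51845, 1311 and 875 bp. The first of these, at chrX:3828739-3880583, was centred outside the gene as the gene table places it, the only such case in the set.

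Some genes hosted regions in both a non-coding isoform and a coding transcript. Of 160 host genes, 10 (6.25%, 3.04 to 11.2%) also held a region centred in a coding exon or UTR, CFLAR, ONECUT1, SARS1, SEMA4D and VTI1A among them. The share of all coding genes with such a region was 12.1%, but that is an unlike measure. Each region has 1 label, so the 10 genes needed a second region. Of the 2419 coding genes with a coding exon or UTR region, 232 held 2 or more. Whether a region assigned to a non-coding isoform also covers a coding exon of the same gene was not tested, since no transcript models were used here. The widest regions up to 5 kb were in CIITA, the regulator of MHC class II genes (4806 bp, exon 18 of 18), SARS1, the cytosolic seryl-tRNA synthetase (4209 bp, exon 2 of 2), ZNF616 (3762 bp, exon 5 of 5), VTI1A, a vesicle-fusion protein (3388 bp, exon 3 of 3), KANTR (3299 bp, exon 3 of 3) and SLC22A23 (3285 bp, exon 12 of 12). All 6 were centred in the last exon of the isoform, which was not always near the 3′ end of the gene. Along the whole gene, VTI1A lay at 0.67% and SARS1 at 8.87%, against 92.3% for ZNF616, 98.52% for SLC22A23 and 98.73% for KANTR. The strand of CIITA was not known. The narrowest were in RBM41 (708 bp), TIAL1, an RNA-binding protein of stress granules (709 bp), and SLC29A2, a nucleoside transporter (710 bp). These were last exons too, exon 8 of 8, exon 11 of 11 and exon 12 of 12. RBM41 and ERC1 held 2 regions each, all 4 in the last exon.

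Zinc finger genes supplied 23 of the 165 isoform regions, in 20 genes. Their regions were wide: 11 of 23 were over 2 kb (47.8%, 26.8 to 69.4%), while 17 of 142 in other isoforms were (12%, 7.13 to 18.5%). They ranged from ZNF276 at 919 bp to ZNF420 at 16077 bp. ZNF660-ZNF197, a read-through transcript of 2 neighbouring zinc finger genes, held 2391 bp in exon 2 and 3108 bp in exon 8 of 8, so its regions lay in a different part of the transcript for each gene. ZSCAN12 held 2002 bp in exon 4 of 6 and 969 bp in exon 6 of 6. These widths are a description, since zinc finger genes were singled out after earlier results were known.

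**Figure D3:**
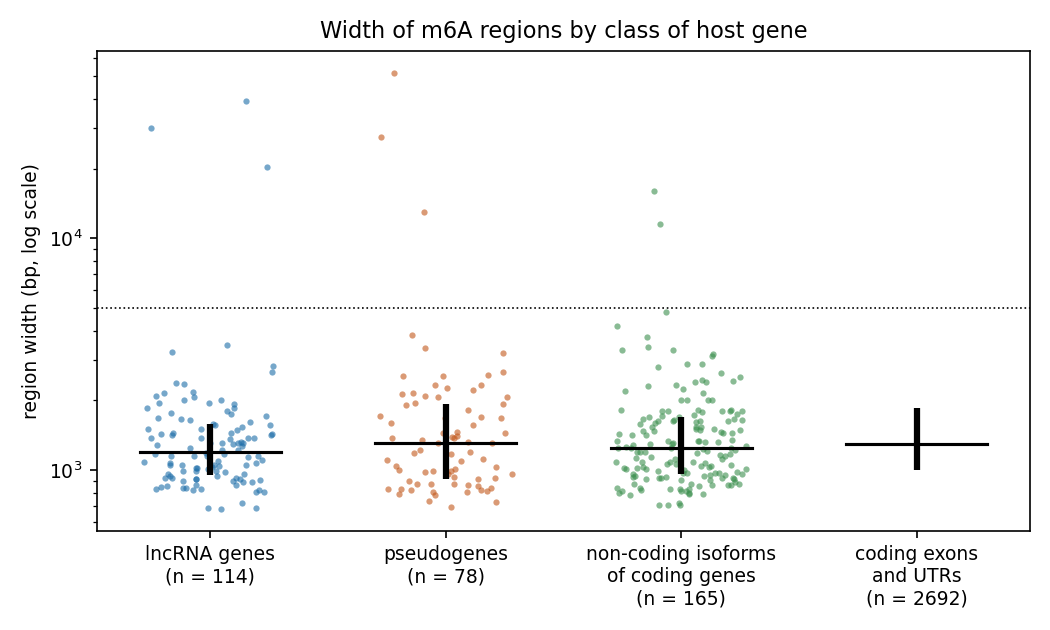
Width of each m6A region in bp on a log axis, by class of host gene, with 1 point for each region in a non-coding exon. Horizontal lines are medians and thick vertical lines run between the quartiles; for coding exons and UTRs (2692 regions) the points are left out, and the dotted line is at 5 kb. Medians lie between 1204.5 and 1310.5 bp in every class.

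The share of regions over 2 kb did not differ past the threshold from that of coding exons and UTRs together, but was lower than that of coding exons alone. The median of non-coding exon regions was 1249 bp (quartiles 961 and 1689 bp), against 1299.5 bp (1006 and 1856.5 bp) for 2692 regions of coding exons and UTRs. By class, the median was 1204.5 bp in lncRNA genes, 1310.5 bp in pseudogenes and 1252 bp in isoforms. Regions over 2 kb made up 64 of 369 (17.3%) in non-coding exons and 550 of 2692 (20.4%) in coding exons and UTRs, a difference of -3.09 percentage points (interval -6.94 to 1.36) with an adjusted p of 0.281 in a two-sided Fisher's exact test. Against the 439 of 1913 coding exon regions alone the difference was -5.6 points (adjusted p = 0.0247, Fisher's exact test). The lncRNA and isoform classes, at 13.2% and 17.0%, differed by -3.81 points (-12 to 5.11, adjusted p = 0.405, Fisher's exact test). Very wide regions went the other way: 8 of 369 non-coding exon regions were over 5 kb (2.17%), against 19 of 2692 (0.706%) in coding exons and UTRs, with an adjusted p of 0.0173 in the same Fisher's exact test. These 8 were all over 10 kb, led by FAM239B (51845 bp), STX18-IT1 (38907 bp) and OSBPL10-AS1 (29860 bp), and included KBTBD6-DT, PPIAP30, FDPSP2, ZNF420 and JPH3. The regions of STX18-IT1 and OSBPL10-AS1 ran past both ends of these genes, so the start windows lay whole within them. Their centres also lay inside the coding genes STX18 and OSBPL10. The label of such a wide region rests on its centre alone, and most of its bases can lie outside the labelled exon.

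**Figure D4:**
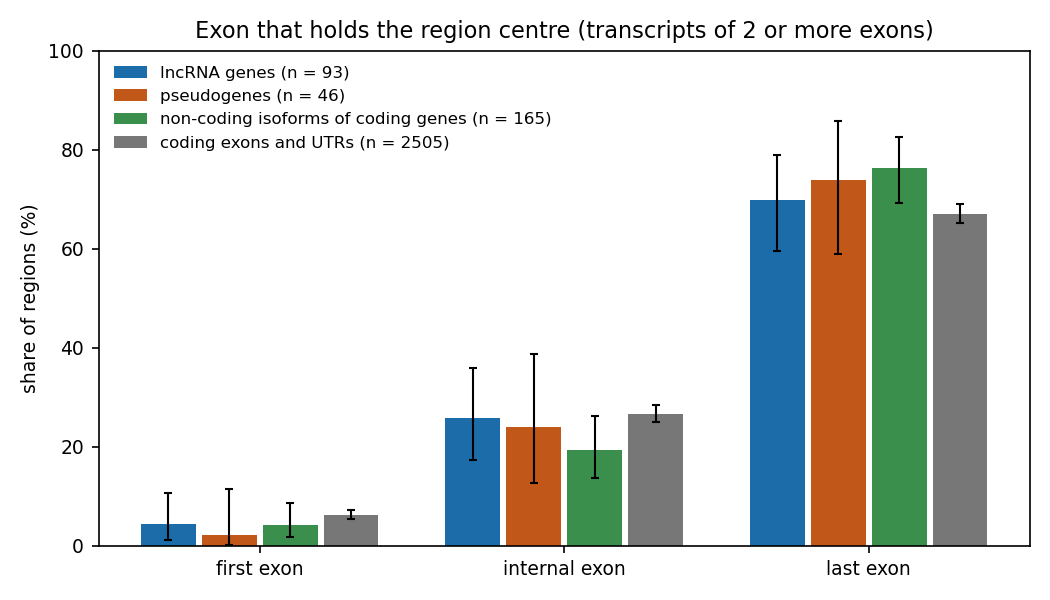
Share of m6A regions centred in the first, an internal or the last exon of their transcript, in percent, for transcripts of 2 or more exons. Bars are classes of host gene with 95% exact binomial intervals. The last exon holds 69.9% to 76.4% in the non-coding classes and 67.1% in coding exons and UTRs.

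The last exon held most regions in each class. Of 314 regions in non-coding transcripts of 2 or more exons, 234 (74.5%) were centred in the last exon, 67 (21.3%) in an internal exon and 13 (4.14%) in the first. In coding exons and UTRs the last exon held 1681 of 2505 (67.1%). The difference was 7.42 percentage points (2.01 to 12.3, odds ratio 1.43, adjusted p = 0.0169, two-sided Fisher's exact test). Among regions up to 2 kb it was 5.4 points with an adjusted p of 0.156 in that Fisher's exact test. The last exon held 65 of 93 lncRNA regions (69.9%, 59.5 to 79.0%), 34 of 46 pseudogene regions (73.9%, 58.9 to 85.7%) and 126 of 165 isoform regions (76.4%, 69.1 to 82.6%). The lncRNA and isoform shares differed by -6.47 points (-18 to 4.47, adjusted p = 0.361, Fisher's exact test). Were every exon of a transcript equally likely, the last would hold 31.0%, 22.0% and 18.3% in lncRNA genes, pseudogenes and isoforms, and 18.8% in coding exons and UTRs; exon lengths were not available, so a long last exon and a preference for it cannot be told apart. Within the lncRNAs the last exon held 17 of 21 LINC regions, 23 of 38 antisense regions and 7 of 8 divergent regions. Single-exon transcripts, which have no last exon to compare, held 21 lncRNA regions (18.4%) and 32 pseudogene regions (41.0%).

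**Figure D5:**
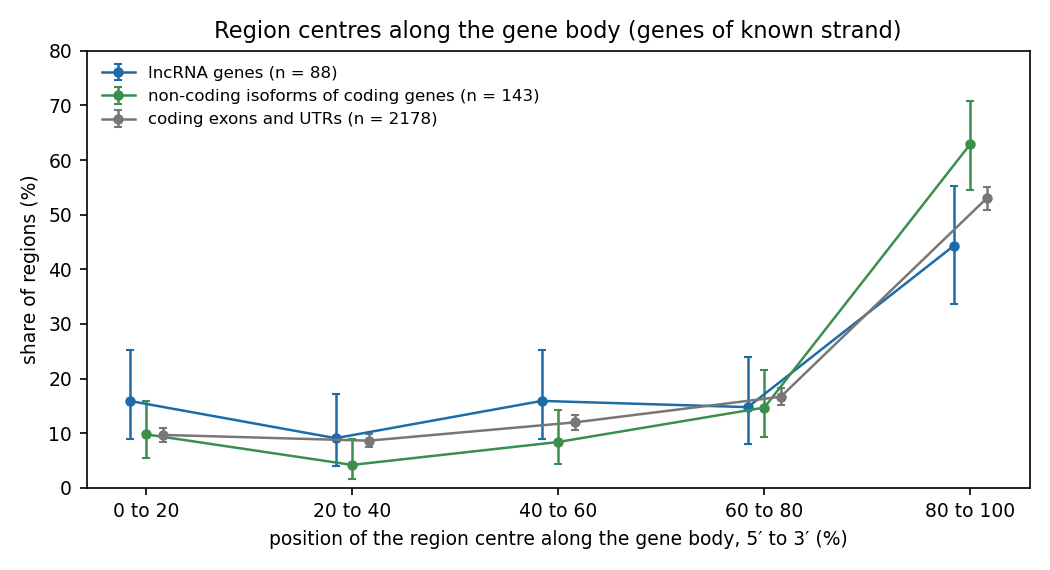
Share of m6A region centres in each 20% of the gene body from 5′ to 3′, in percent, for genes of known strand. Points are shares with 95% exact binomial intervals and lines join points of 1 class. The last 20% holds 44.3% of lncRNA, 62.9% of isoform and 53.0% of coding exon and UTR regions.

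Positions along the gene body, introns included, leaned to the 3′ end as well. Strand was known for 231 regions in lncRNA genes and isoforms. The last 20% of the gene held 39 of 88 lncRNA regions (44.3%, 33.7 to 55.3%), 90 of 143 isoform regions (62.9%, 54.5 to 70.9%) and 1155 of 2178 coding exon and UTR regions (53.0%). The first 20% held 15.9%, 9.79% and 9.69%, in that order. The median position was 75.8% of the way along lncRNA genes, 86.5% along isoform genes and 82.3% along genes of coding exon and UTR regions. By exon, the median was 91.9% for regions in last exons (158 regions), 44.0% for internal exons (47) and 4.81% for first exons (10). These positions overlap with the exon labels as a measure and were not tested. The 2 measures are not the same, since the last exon of a short isoform can lie early in the gene, as for VTI1A (0.67%) and SARS1 (8.87%). Positions along the gene also include single-exon transcripts.

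Regions of lncRNA genes lay closer to a start site than those of isoforms. The centre was within 5 kb of the nearest annotated start in 57 of 114 lncRNA regions (50%), against 40 of 165 isoform regions (24.2%), a difference of 25.76 percentage points (14.3 to 36.5, odds ratio 3.13, adjusted p = 7.35e-05, two-sided Fisher's exact test). Of pseudogene regions, 44 of 78 (56.4%) were that close. Over the whole set the count was 146 of 369 (39.6%), against 790 of 2692 (29.3%) in coding exons and UTRs, a difference of 10.22 points (5.06 to 15.6, odds ratio 1.58, adjusted p = 0.000263, Fisher's exact test). The median distance to the nearest annotated start was 4999 bp in lncRNA genes, 3461.5 bp in pseudogenes, 12483 bp in isoforms and 12055.5 bp in coding exons and UTRs. That start can belong to another gene, so these distances are not positions along the host gene. Host genes differed in length in the same order, with medians of 8717.5 bp for lncRNA genes, 7412 bp for pseudogenes, 43028 bp for isoforms and 38846 bp for coding exons and UTRs. Gene length was not held fixed, so its part in the difference was not tested.

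Most regions had no close neighbour. Another region of the whole set lay within 5 kb of 24 of 114 lncRNA regions (21.1%), 20 of 78 pseudogene regions (25.6%) and 28 of 165 isoform regions (17.0%). The median gap to the next region was 33033.5 bp for lncRNA genes, 15910 bp for pseudogenes and 38994 bp for isoforms.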

How the data were processed

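The 4 libraries (2 m6A pull-down, 2 input) were grouped by their titles. Per the submitters' processing notes, the genome was hg38 and the tools were MACS2 2.2.7.1, HOMER, bedtools 2.30.0, HISAT2 2.2.1, Trim Galore 0.6.7 and SAMtools 1.6. Their settings, and which sets were intersected, are not given in the sources used here. Measurements deposited by the authors are coordinates and distances in base pairs (start, end, and centre to nearest start site), other than counts or signal.

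Members were annotation lines that begin with non-coding. Host genes came from matching the annotated transcript to a RefSeq table of GRCh38.p14 by accession, and classes from its gene type. Shares were compared by two-sided Fisher's exact tests in scipy 1.17.1 with Benjamini-Hochberg adjustment over 6 tests and a threshold of 0.05. Of 8 tests planned, 2 on repeats were not run, since no exonic region has a repeat at its centre in the annotation. The test and adjustment were first checked on simulated independent counts, which does not cover regions that depend on each other. Alternatives were other width, distance and exon limits, comparison sets, merging of close regions and ways of naming genes; some, marked in the closing section, were added after seeing the data.

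Members and lists were chosen with earlier results of these data known. Genes were named by rule: OTX2; genes with 2 or more regions, at most 12; the 6 widest regions up to 5 kb and the 3 narrowest of each class; the 3 widest of all; up to 6 listed genes with a region and 4 without; and up to 4 start windows, lncRNA genes first. Of those windows, STX18-IT1 and OSBPL10-AS1 are not printed, and NORAD and LINC01356 are shown in their place. Outside the rule, chosen after their values were seen, are OTX1, WTAPP1, FTX, JPX, JPH3, ZNF276, ZNF420, PPIAP30, FDPSP2, NEXN, CFLAR, ONECUT1, SEMA4D, TUNAR, BEND3, OXCT2, SLC9A7, TOB2, ZKSCAN8 and the genes of chromosome 6 in the closing section. Python 3.11.15, pandas 2.3.3 and matplotlib 3.10.9 were used.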

Additional observations from a re-analysis of the deposited data

How the results depend on the processing

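No paired analysis was possible because the deposited data are 1 intersected set with no values per library; for the same reason no library could be left out. Of 38 alternatives, 33 kept the direction and the side of the threshold, or, where there was no test, moved the value little. With 5 kb in place of 2 kb as the limit of a wide region, the difference turned to 1.46 percentage points for non-coding exons against coding exons and UTRs (adjusted p = 0.0173, Fisher's exact test) and to 1.42 points for lncRNA genes against isoforms (adjusted p = 0.402); these rest on 8 against 19 and 3 against 2 regions, and the cause was not tested. Against coding exons without UTRs, the share over 2 kb differed by -5.6 points (adjusted p = 0.0247, Fisher's exact test). Among regions up to 2 kb the last-exon difference was 5.4 points (adjusted p = 0.156, Fisher's exact test), a setting with fewer regions. Against coding exons without UTRs it was 17.3 points (adjusted p = 2.97e-08, Fisher's exact test). That setting takes UTR regions out of the coding side only, where the last-exon share fell from 67.1% to 57.2%. Over the remaining alternatives the last-exon difference ran from 7.34 to 10.8 points, at adjusted p from 3.68e-05 to 0.0293 in the same test. The listed lncRNAs and small RNAs that held a region were 6 of 61 (9.84%) by transcript label, 9 of 61 (14.8%) with MALAT1, TUG1 and TUNAR given their regions by position, and 20 of 61 (32.8%) by any overlap with the gene body. Leaving out zinc finger genes or the region centred outside its gene, and counting by position, were chosen after seeing the data; the first 2 changed no call. Depth is unknown, so no lower limit on detection can be given.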

Other observations

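Part of chromosome 6 held many of the regions in non-coding exons. The chromosome had 29 of the 369 (7.86%, interval 5.33 to 11.1%), against 129 of 2692 regions in coding exons and UTRs (4.79%, 4.02 to 5.67%). Of the 29, 16 lay between 26 and 34 Mb, the part that holds the major histocompatibility complex (MHC) and its flanking zinc finger genes, where there were 86 regions in all and 26 in coding exons and UTRs. These 16 were 8 lncRNA, 6 pseudogene and 2 isoform regions. The lncRNA genes included HCP5 (1509 bp), HCG18 (2010 bp), HCG4 (1191 bp), HCG4B (1049 bp), HCG11 (1107 bp), HLA-F-AS1 (1155 bp) and MICA-AS1 (949 bp). The pseudogenes included HLA-J (870 bp), BTN2A3P (813 bp), ZNF204P (2061 bp) and ZSCAN12P1 (805 bp). The MHC is rich in near-identical gene copies, and the treatment of reads that align to more than 1 place was not stated. These counts were chosen after their values were seen and were not tested.

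On chromosome 19, home of many zinc finger genes, the order was the other way, with 20 of 369 non-coding exon regions (5.42%, 3.34 to 8.25%) against 294 of 2692 coding exon and UTR regions (10.9%, 9.77 to 12.2%).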
